A study of Mus musculus with 8 samples.

Results

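The 7 genes that encode the subunits of the NMDA receptor (Grin1, Grin2a, Grin2b, Grin2c, Grin2d, Grin3a and Grin3b) were followed in the visual cortex of adult C57BL/6J mice, taken by gene symbol from a table of 24883 gene rows. Each symbol matched 1 row. In mm10 they lie on 7 chromosomes: Grin1 on chromosome 2 at 25291181 to 25319187, Grin2a on 16 at 9567898 to 9995560, Grin2b on 6 at 135713233 to 136173511 and Grin2c on 11 at 115249169 to 115267243. Grin2d lies on 7 at 45831883 to 45878378, Grin3a on 4 at 49661611 to 49845744 and Grin3b on 10 at 79970715 to 79977190. In 4 libraries the cortex had received an anti-miR-29a LNA, a short oligonucleotide with chemically locked nucleotides that pairs with the microRNA miR-29a. In the other 4 libraries it had received an LNA of scrambled sequence. All mice were injected into the cortex on postnatal day 122 and the tissue was collected on postnatal day 129, so every sample, the scrambled ones included, had been injected with an LNA 7 days earlier. The labels give no sex and do not say whether a sample is 1 animal or a pool, so the p-values weigh differences against a sample-to-sample spread that may be technical in part.

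NMDA receptors are glutamate-gated channels that open only when glutamate and a co-agonist, glycine or D-serine, are bound and the membrane is depolarised enough to expel magnesium from the pore. Each receptor combines GluN1 subunits, from Grin1, with GluN2 subunits, from Grin2a to Grin2d, or with GluN3 subunits, from Grin3a and Grin3b. The GluN2 subunit sets how long the channel stays open. In the visual cortex GluN2B dominates early in life and GluN2A gains on it as the cortex matures, a switch that visual experience drives and that accompanies the narrowing of plasticity, which is why the Grin2b to Grin2a ratio is a common index of cortical maturity.

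The sequences below show what the injected oligonucleotide was aimed at and where the subunit transcripts hold a match to it. The mature miR-29 sequences (RefSeq, GRCm38.p6) share the same seed, bases 2 to 8 of the microRNA, printed in capitals.
miR-29a-3p: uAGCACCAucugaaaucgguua
miR-29b-3p: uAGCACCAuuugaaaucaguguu
miR-29c-3p: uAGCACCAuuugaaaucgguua
The reverse complement of that seed in DNA letters is TGGTGCT, and it was searched on the sense strand of the longest annotated 3' UTR of each gene. Only Grin2a and Grin2b among the 7 genes held it, in the 30-base windows below (GENCODE M21, mm10, minus strand, exonic), with the match in capitals.
Grin2a, chr16:9571037-9571066: cctctccccgccTGGTGCTtgcactcagca
Grin2b, chr6:135725796-135725825: atgaccctgagcTGGTGCTgagaagcatat
Grin2b, chr6:135719789-135719818: ccattttctcttTGGTGCTattctcatatt
The Grin2b match at 135719800 to 135719806 is followed by an A, which makes it an 8mer site, and the other 2 matches are not 8mers. These UTRs are long, at 9929 nt for Grin2a and 18865 nt for Grin2b, against a median of 1230 nt over 13110 tested genes. A match was present in 15.8% of all tested 3' UTRs, and in 47 of the 67 that were at least 9000 nt long (70.1%). A match is a description of the letters in the window and does not show that the microRNA binds there.

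The commonest ratio of low values placed the other libraries at 0.975 to 1.16 times the depth of scrambled replicate 1. Only ratios near equal depth were searched, so a large difference in depth could not have been seen. Each library listed 12538 to 12769 rows at 1 FPKM or more. FPKM is fragments per kilobase of transcript, scaled for the depth of the library in a way that no source used here gives. Because transcript length is divided out, levels can be compared between genes, though they depend on the transcript models used. Markers of cortical excitatory neurons summed to at least 2711 FPKM in every library, and no marker list held a gene at 0 in all 8. Meningeal fibroblast markers summed to 461.5 to 700.9 FPKM in anti-miR-29a libraries and 314.9 to 491.7 FPKM in scrambled libraries. Nearly all of that sum was Ptgds, and 4 of 4 tested members were above 0. All 6 oligodendrocyte markers were below 0, and no marker of either list was called. Their part in the results was not tested. A pair of scrambled libraries stood apart from the rest. Scrambled replicate 2 lay at -42.7 on the first principal component, where the other libraries lay between -9.95 and 15.8, and scrambled replicate 3 lay at -42.3 on the second, where the others lay between -4.09 and 16.1. Scrambled replicate 3 also carried cerebellar transcripts: Gabra6, a receptor gene of cerebellar granule cells, read 6.67 FPKM there, 0.170 FPKM in anti-miR-29a replicate 3 and was listed at 0 in the other 6 libraries. Of 16 cerebellar genes, 15 of them chosen after values were seen, 15 were highest in that library. Pcp2, a Purkinje cell gene, read 41.2 FPKM in it and at most 0.843 FPKM elsewhere.

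The 7 subunit transcripts spanned a wide range of levels, and Grin1 was the most abundant in every library. Over the 8 libraries Grin1 averaged 138.1 ± 7.18 FPKM (SD, n = 8), 12.2 times the mean of the next gene, Grin2c. Grin2c averaged 11.3 ± 1.91 FPKM and Grin2a 7.71 ± 1.53 FPKM, and Grin2c was the higher of the pair in 6 of 8 libraries. Grin3a, Grin2d and Grin2b followed at 3.26 ± 0.486, 3.10 ± 0.615 and 3.01 ± 1.09 FPKM. These 3 were not separable by level: Grin3a exceeded Grin2d in 4 of 8 libraries, and Grin2d exceeded Grin2b in 3 of 4 anti-miR-29a libraries and 1 of 4 scrambled libraries. Their order also differed by group, since the Grin2b mean was the lowest of the 3 in anti-miR-29a libraries, at 2.30 FPKM, and the highest of the 3 in scrambled libraries, at 3.71 FPKM. Grin3b was last at 0.108 ± 0.0793 FPKM.

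**Figure D1:**
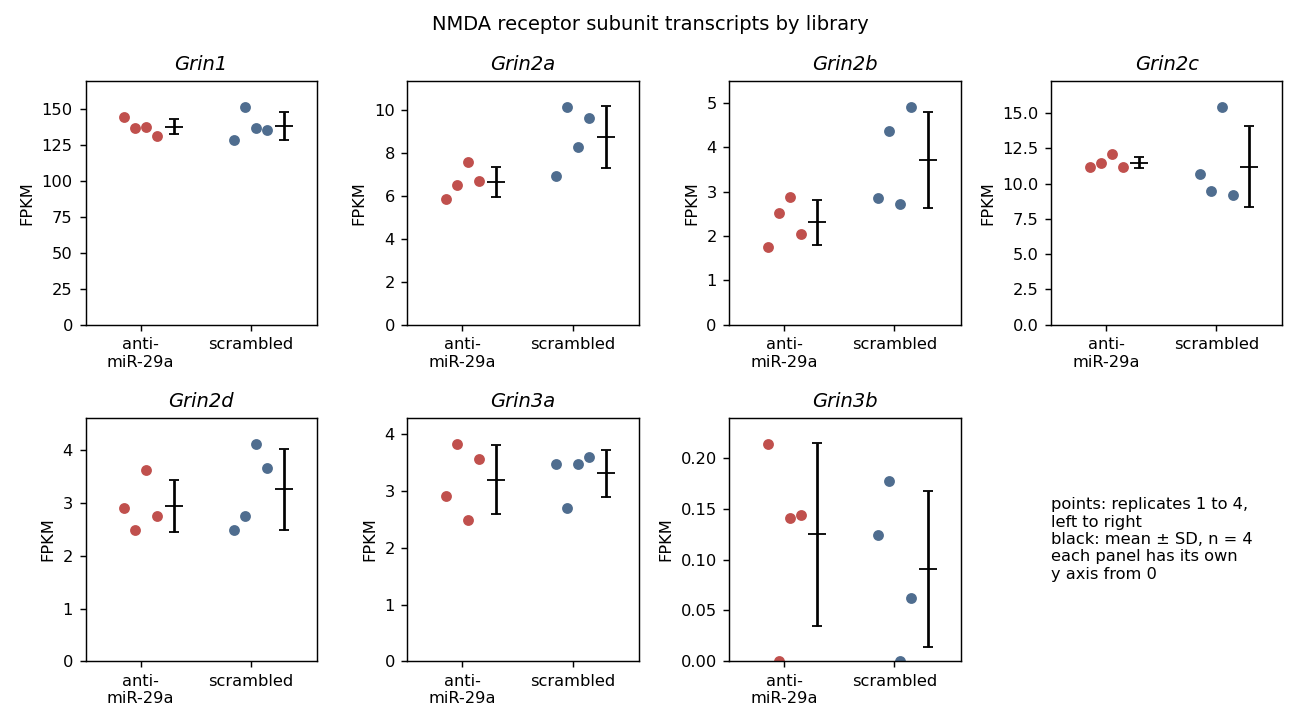
FPKM (y axis, from 0, a separate scale in each panel) of the 7 subunit genes in the 4 anti-miR-29a libraries (red) and the 4 scrambled libraries (blue); points are replicates 1 to 4 from left to right and black marks are the mean ± SD (n = 4). Grin2b lies at 1.76 to 2.89 FPKM in anti-miR-29a libraries and at 2.72 to 4.91 FPKM in scrambled libraries, and the groups overlap in every panel.

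Whether the receptor's transcripts differed 7 days after an LNA against miR-29a was asked by comparing the 2 groups. None of the 6 subunits with a mean of at least 0.5 FPKM was called after adjustment over all 13912 tested rows (limma on log2(FPKM + 0.1), Benjamini-Hochberg, threshold 0.05), where 2 rows were called in all (0.0144%). Grin2a and Grin2b were lower at an unadjusted p under 0.05, as were 3.18% of all tested rows. In none of the 6 were the groups free of overlap, against 6.31% of tested rows. The median difference of the 6 was -0.092 log2 units, with 5 of 6 below 0, and that of all tested rows was 0.026, with 43.4% below 0. Because the tissue is bulk cortex, fewer cells of a type and less RNA per cell cannot be told apart.

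Grin1 encodes the obligatory subunit that binds the co-agonist, and its level was nearly the same in both groups. It read 144.6, 137.2, 138.0 and 131.8 FPKM in anti-miR-29a libraries and 128.6, 151.6, 137.0 and 135.8 FPKM in scrambled libraries. The means were 137.9 ± 5.27 and 138.3 ± 9.62 FPKM (SD, n = 4 each), and both the highest and the lowest library were scrambled. The log2 difference was -0.0020 with a 95% interval of -0.12 to 0.12 (limma, adjusted p = 0.993), which leaves room for a difference within those bounds in either direction. Without scrambled replicate 2, the highest library, the difference was 0.043 (limma, adjusted p = 0.848). The antisense transcript Grin1os lies within the Grin1 locus on the opposite strand of chromosome 2, at 25291220 to 25298925, and 1307 of its 2891 exonic bases lie over Grin1 exons. The library kit does not mark strand, so reads from the shared bases cannot be assigned to either gene. Grin1os, a gene chosen after its values were seen, read 8.63, 7.68, 7.53 and 7.90 FPKM in anti-miR-29a libraries and 10.2, 9.51, 10.1 and 8.94 FPKM in scrambled libraries. All 4 anti-miR-29a values lay below all 4 scrambled ones, with a log2 difference of -0.29 that was not called (limma, adjusted p = 0.266).

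Grin2a and Grin2b encode the main GluN2 subunits of cortical synapses, and both read lower in anti-miR-29a libraries without passing the test. Grin2a, the mature subunit, read 5.88, 6.53, 7.60 and 6.69 FPKM in anti-miR-29a libraries and 6.92, 10.2, 8.28 and 9.63 FPKM in scrambled libraries. Replicates 1, 2 and 4 of the anti-miR-29a group lay below every scrambled library, and anti-miR-29a replicate 3 lay between scrambled replicates 1 and 3. The means were 6.67 ± 0.709 and 8.75 ± 1.45 FPKM (SD, n = 4 each), a log2 difference of -0.38 with a standard error of 0.13 and a 95% interval of -0.67 to -0.085 (limma, unadjusted p = 0.0164, adjusted p = 0.351).

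Grin2b, the subunit of the young cortex, read 1.76, 2.53, 2.89 and 2.05 FPKM in anti-miR-29a libraries and 2.85, 4.37, 2.72 and 4.91 FPKM in scrambled libraries. Scrambled replicates 2 and 4 were well above the other 6 libraries, while scrambled replicates 1 and 3 lay just under anti-miR-29a replicate 3. The means were 2.30 ± 0.503 and 3.71 ± 1.09 FPKM (SD, n = 4 each). That is a log2 difference of -0.64 with a standard error of 0.23 and a 95% interval of -1.15 to -0.14 (limma, unadjusted p = 0.0171, adjusted p = 0.360). Of all tested rows, 1.41% had a difference at or below that of Grin2b, and 3.82% one at or below that of Grin2a.

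Both differences kept their sign whichever library was left out, but not always an unadjusted p under 0.05. By limma the unadjusted p was 0.0505 for Grin2a without scrambled replicate 2. For Grin2b it was 0.0503 without anti-miR-29a replicate 1, 0.0507 without scrambled replicate 2 and 0.0558 without scrambled replicate 4. Without scrambled replicate 2 they were -0.30 for Grin2a and -0.55 for Grin2b (limma, adjusted p = 0.565 for both). Without scrambled replicate 3, the library with cerebellar transcripts, they were -0.40 and -0.77 (limma, adjusted p = 0.375 and 0.297). The smallest Grin2b difference, -0.50, was that without scrambled replicate 4. The 2 transcripts varied together across the 8 libraries, with a Pearson correlation of 0.93 on the log2 scale, given as a description since the libraries share the group difference. The matched correlations of Grin1 with Grin2a and with Grin2b were 0.35 and 0.20. The summed level of 7 pan-neuronal markers was 2602 to 2836 FPKM in anti-miR-29a libraries and 2658 to 2841 FPKM in scrambled libraries. That of 8 excitatory neuron markers was 2903 to 3157 FPKM in anti-miR-29a libraries and 2711 to 2978 FPKM in scrambled libraries. The ranges of the groups overlapped for both marker lists, whose median log2 differences were -0.0081 and -0.013. Most of the first sum was Snap25 and most of the second Nrgn, so the sums say little of the other markers. Above 0 were 3 of the 7 pan-neuronal and 4 of the 8 excitatory markers. Syt1 and Neurod6 were lower with no overlap, at -0.097 and -0.25, Nrgn was higher at 0.12, and no marker of either list was called.

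**Figure D2:**
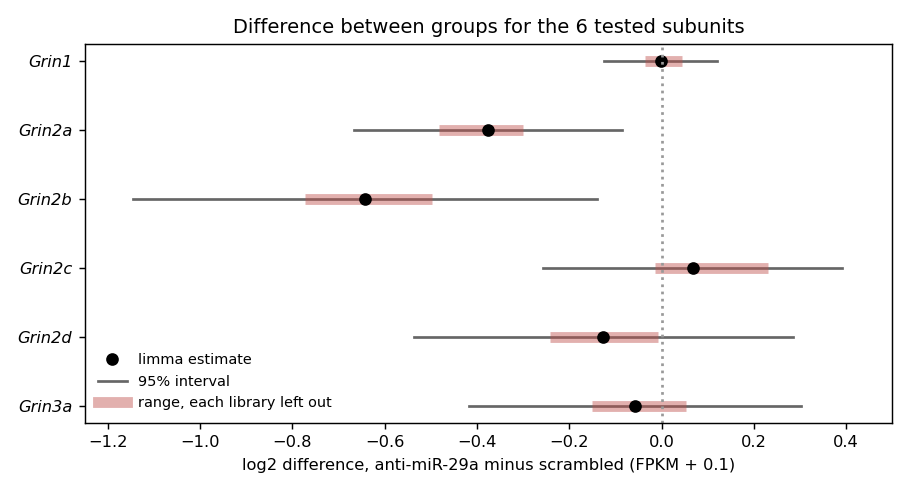
Log2 difference between anti-miR-29a and scrambled libraries (x axis, from log2(FPKM + 0.1); below 0 is lower in anti-miR-29a libraries) for the 6 tested subunits, with the limma estimate (black point), its 95% interval (grey line) and the range of estimates when each of the 8 libraries is left out (red band). The intervals of Grin2a and Grin2b, which are not adjusted for the number of genes, lie below 0, and those of the other 4 span 0.

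The Grin2b to Grin2a ratio is taken inside each library and is free of scaling between libraries. It was 0.299, 0.387, 0.380 and 0.306 in anti-miR-29a libraries and 0.413, 0.430, 0.329 and 0.510 in scrambled libraries. Scrambled replicate 3 lay among the anti-miR-29a values and the other 3 scrambled libraries lay above all of them. The mean ratio was 0.343 ± 0.0470 in anti-miR-29a libraries and 0.420 ± 0.0743 in scrambled libraries (SD, n = 4 each). The log2 difference was -0.29, a ratio 0.820 times as large, and the exact two-sided permutation test over 70 relabellings gave p = 0.143, where the smallest possible is 0.0286. The difference was -0.27 without scrambled replicate 2 (exact permutation p = 0.20), -0.40 without scrambled replicate 3 (exact permutation p = 0.0571) and -0.19 without scrambled replicate 4 (exact permutation p = 0.257).

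**Figure D3:**
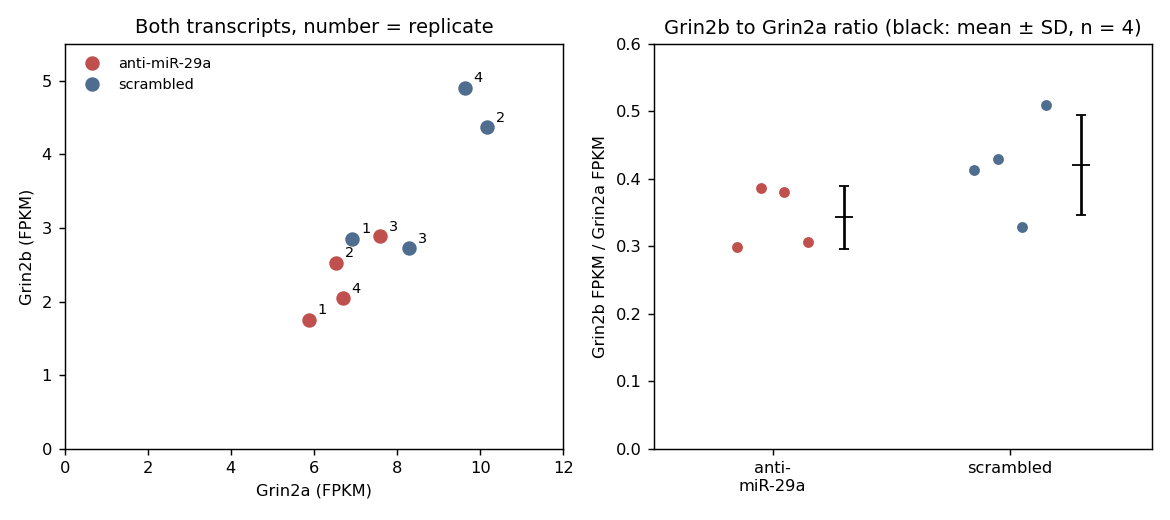
Left, Grin2b against Grin2a in FPKM for each library, numbered by replicate, with anti-miR-29a in red and scrambled in blue. Right, the Grin2b to Grin2a ratio (no unit) in each library with the mean ± SD (n = 4); the ratio is 0.299 to 0.387 in anti-miR-29a libraries and 0.329 to 0.510 in scrambled libraries, so the groups overlap through scrambled replicate 3.

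The make-up of the GluN2 transcripts was described as each gene's share of the summed FPKM of Grin2a to Grin2d. Comparisons between these genes, and with Grin1, depend on transcript models that no source used here gives. The longest annotated transcripts are 4895 nt for Grin2c, 14634 nt for Grin2a and 24060 nt for Grin2b. The sum was 21.7, 23.0, 26.2 and 22.7 FPKM in anti-miR-29a libraries and 22.9, 26.8, 30.5 and 27.4 FPKM in scrambled libraries. Grin2b made up 9.78% ± 1.47 of it in anti-miR-29a libraries and 13.9% ± 4.03 in scrambled libraries (SD, n = 4 each). Grin2c was the largest share in all 4 anti-miR-29a libraries, at 46.1% to 51.5%, and ranged from 33.6% to 50.5% in scrambled libraries. In scrambled replicates 2 and 4 Grin2a took the largest share, 37.9% and 35.1%. The Grin1 level was 5.92 ± 0.568 times the GluN2 sum in anti-miR-29a libraries and 5.18 ± 0.563 times in scrambled libraries. Scrambled replicate 3, with cerebellar transcripts and the most Grin2c, had the lowest scrambled Grin2b share, 8.91%, and the lowest multiple, 4.48. Without it the scrambled means (SD, n = 3) were 15.6% ± 2.80 for the Grin2b share, 38.5% ± 6.98 for the Grin2c share and 5.41 ± 0.394 for the multiple. Without scrambled replicate 2 they were 13.1% ± 4.53, 43.5% ± 8.82 and 5.02 ± 0.567.

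**Figure D4:**
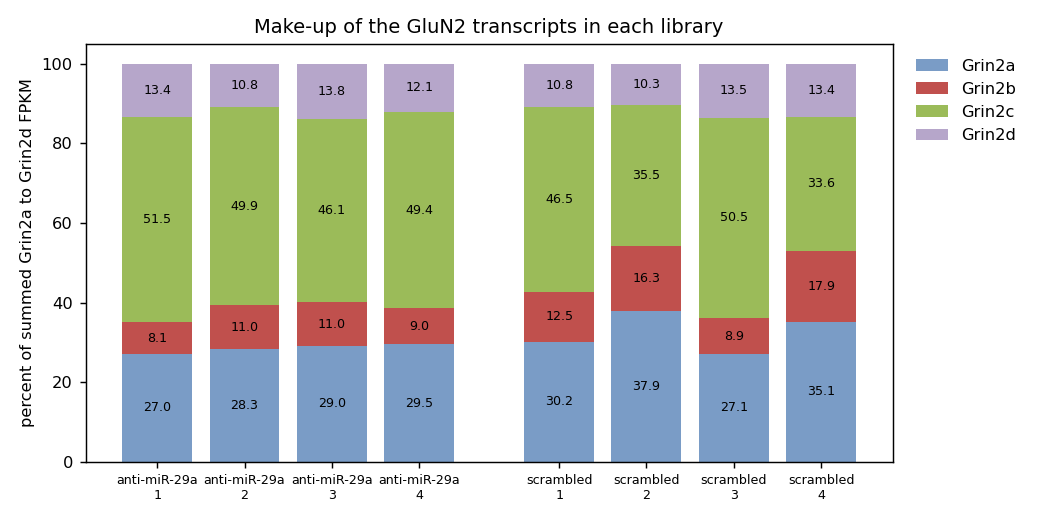
Percent of the summed FPKM of Grin2a to Grin2d held by each gene (stacked bars, to 100) in each of the 8 libraries, named by group and replicate. Grin2b holds 8.08% to 11.0% in anti-miR-29a libraries and 8.91% to 17.9% in scrambled libraries, with its highest shares in scrambled replicates 2 and 4.

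Grin2c encodes a subunit best known from cerebellar granule cells and, in the forebrain, reported in astrocytes. It read 11.2, 11.5, 12.1 and 11.2 FPKM in anti-miR-29a libraries and 10.7, 9.49, 15.4 and 9.21 FPKM in scrambled libraries. The anti-miR-29a libraries lay close together, inside the wide range of the scrambled ones, whose highest value was that of scrambled replicate 3. The means were 11.5 ± 0.411 and 11.2 ± 2.89 FPKM (SD, n = 4 each), with a log2 difference of 0.067 and a 95% interval of -0.26 to 0.39 (limma, adjusted p = 0.896). Scrambled replicate 3 is the library with cerebellar transcripts, and without it the scrambled mean was 9.79 ± 0.769 FPKM (SD, n = 3). All 4 anti-miR-29a values then lay above the 3 scrambled ones, and the log2 difference was 0.23 with a standard error of 0.082, which was not called (limma, unadjusted p = 0.0205, adjusted p = 0.359). In that fit 1577 of 13907 rows had an unadjusted p under 0.05 by limma. The share of all rows free of overlap at 4 against 3 was not counted, and such a separation is easier to reach than at 4 against 4. Without scrambled replicate 2 the Grin2c difference was -0.00072, and without scrambled replicate 4 it was -0.015. Astrocyte markers summed to 546.6 to 842.4 FPKM in anti-miR-29a libraries and 507.3 to 665.4 FPKM in scrambled libraries, with 3 of 6 higher. Gfap differed most, with means of 274.8 and 168.9 FPKM and a log2 difference of 0.72, so the sums say little of the other markers. Aqp4 and Gjb6 were at 0.29 and 0.085, and Aldh1l1, Slc1a3 and Aldoc were at -0.0040, -0.0040 and -0.023. None of these markers was called. Their part in the Grin2c values was not tested.

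Grin2d encodes a subunit of slowly closing receptors, found in the forebrain mainly in interneurons. It read 2.91, 2.49, 3.62 and 2.75 FPKM in anti-miR-29a libraries and 2.48, 2.76, 4.12 and 3.66 FPKM in scrambled libraries, and the anti-miR-29a values lay inside the range of the scrambled ones. The means were 2.94 ± 0.483 and 3.26 ± 0.764 FPKM (SD, n = 4 each), a log2 difference of -0.13 with a 95% interval of -0.54 to 0.28 (limma, adjusted p = 0.837). Its highest value was also that of scrambled replicate 3, and without that library the difference was -0.0072 (limma, adjusted p = 0.991). Interneuron markers summed to 712.4 to 802.3 FPKM in anti-miR-29a libraries and 682.8 to 734.2 FPKM in scrambled libraries, but most of that sum was Sst, and 4 of the 7 markers were above 0 and 3 below.

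The GluN3 subunits bind glycine and lower the calcium flow through the receptors that contain them. Grin3a, the GluN3 subunit of the forebrain, read 2.91, 3.83, 2.49 and 3.57 FPKM in anti-miR-29a libraries and 3.48, 2.70, 3.47 and 3.60 FPKM in scrambled libraries. Scrambled replicate 2 was the low one of its group, and the scrambled values lay inside the range of the anti-miR-29a ones. The means were 3.20 ± 0.610 and 3.31 ± 0.414 FPKM (SD, n = 4 each), with a log2 difference of -0.058 and a 95% interval of -0.42 to 0.30 (limma, adjusted p = 0.921). Without scrambled replicate 2 the difference was -0.15 (limma, adjusted p = 0.843), and without anti-miR-29a replicate 3 it was 0.052.

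Grin3b, known mainly from motor neurons, was under the filter and was not tested. It read 0.214, 0, 0.141 and 0.144 FPKM in anti-miR-29a libraries and 0.124, 0.177, 0 and 0.0624 FPKM in scrambled libraries. The other values above 0 were 1.98 to 3.42 times the smallest, 0.0624 FPKM. With no counts, the number of fragments behind these low values is unknown. The 3' end of the gene shares 1059 exonic bases with Tmem259 on the other strand, so even the fragments behind these values may be shared.

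The length of the transcripts moved with the differences between groups. The longest annotated transcripts are 24060 nt for Grin2b and 14634 nt for Grin2a, whereas those of Grin1, Grin2c, Grin2d and Grin3a are 4276, 4895, 5431 and 7491 nt. Over all tested rows the median log2 difference was 0.12 for transcripts of 200 to 1000 nt, -0.015 from 4000 to 6000 nt and -0.093 in the 335 rows of at least 10000 nt, of which 76.4% were below 0. Relative to the scrambled mean, that last class had medians of -0.13, -0.048, -0.094 and -0.090 in anti-miR-29a libraries and -0.040, 0.023, -0.049 and 0.056 in scrambled libraries. Scrambled replicates 2 and 4, the libraries with the most Grin2a and Grin2b, were therefore also those with the highest values of long transcripts in general. Grin2a and Grin2b lay below the lower quartile of that class, -0.19. After each library was corrected for a smooth dependence on length and GC content, Grin2a stood at -0.26 and Grin2b at -0.51 (limma, unadjusted p = 0.0362 and 0.0188, adjusted p = 0.579 and 0.545). The ratio of the pair then differed by -0.26 log2 units (exact permutation p = 0.143). Only 4 tested genes, Grin2b among them, had a transcript as long as that of Grin2b, so the trend there rests on few genes. The median log2 difference of those 4 was -0.34. For the 62 genes with a transcript as long as that of Grin2a, Grin2a included, the median was -0.058. For the 67 genes with a 3' UTR of at least 9000 nt it was -0.16. For the 2066 tested genes with a miR-29 seed match in the 3' UTR the median was 0.025, and for the 11044 without a match it was 0.026. For the 441 with an 8mer it was 0.048. The part of the seed matches in the Grin2a and Grin2b values was not tested.

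**Figure D5:**
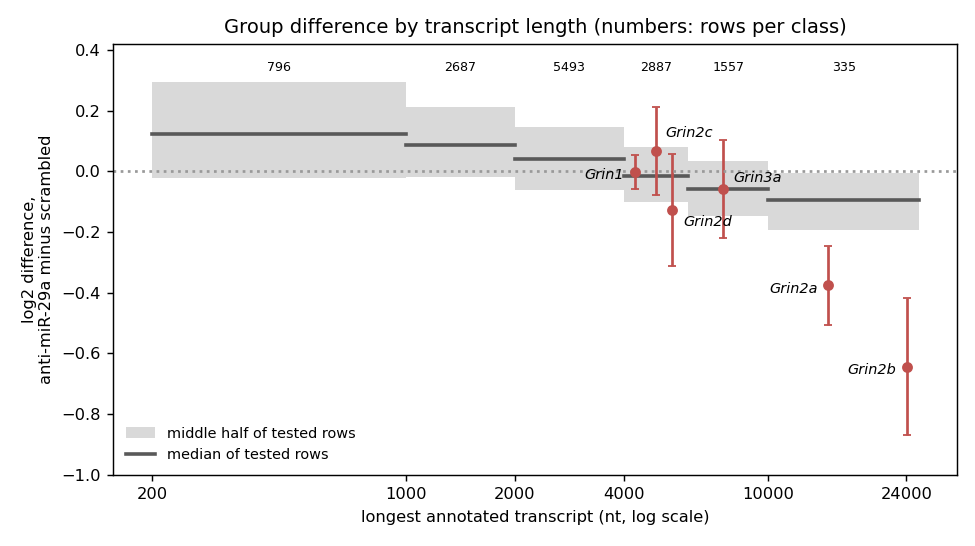
Log2 difference between anti-miR-29a and scrambled libraries (y axis) against the longest annotated transcript in nt (x axis, log scale). Grey lines are the medians and grey boxes the middle 50% of all tested rows in 6 length classes (the last is open at its upper end, row numbers above), and red points are the 6 tested subunits with standard errors; Grin2a and Grin2b lie below the box of the longest class.

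Genes that anchor the receptor, carry its signal, supply its ligands or are reported to control its subunits were listed for context, and no member of any list was called in either direction. Of 23 scaffold and anchoring genes, all tested, 13 were below 0, with a median log2 difference of -0.014. Over all tested rows 43.4% were below 0 and the median was 0.026. Shank2, a scaffold of the postsynaptic density, averaged 29.3 ± 1.10 FPKM in anti-miR-29a libraries and 33.0 ± 2.19 FPKM in scrambled libraries (SD, n = 4 each; log2 difference -0.17, limma, adjusted p = 0.375). Dlg1, the SAP97 scaffold, differed by -0.13. Among 26 calcium signalling and kinase genes the median was -0.031 with 18 below 0, against the same 43.4% of all tested rows. Prkcb, a protein kinase C gene, read 100.1, 98.5, 104.4 and 100.8 FPKM in anti-miR-29a libraries and 115.7, 114.6, 110.9 and 117.8 FPKM in scrambled libraries. Those groups did not overlap, and the log2 difference of -0.18 was not called (limma, adjusted p = 0.20). Calm3, a calmodulin gene, and Csnk2b, the regulatory subunit of casein kinase 2, differed by 0.11 each.

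Of 19 tested genes that supply glutamate and the co-agonists, 14 were above 0, with a median of 0.069, against 7873 of 13912 and a median of 0.026 over all tested rows. Their transcripts are the shortest of these lists, with a median of 2915 nt, and all tested rows of 2000 to 4000 nt had a median difference of 0.040. The part of length in this list was not tested. Psph, which makes serine, averaged 6.70 ± 0.902 FPKM in anti-miR-29a libraries and 5.56 ± 0.476 FPKM in scrambled libraries (SD, n = 4 each; log2 difference 0.26, limma, adjusted p = 0.457). Shmt2, which interconverts serine and glycine, and Glul, the glutamine synthetase of astrocytes, differed by 0.19 and 0.083. Among 16 tested regulators of subunit expression or trafficking 11 were below 0, with a median of -0.066, against 43.4% of all tested rows below 0. The regulators have the longest transcripts of these lists, with a median of 7382 nt. All tested rows of 6000 to 10000 nt had a median difference of -0.058, with 66.1% below 0. The part of length in the regulators was not tested either. Reln, whose protein promotes the exchange of GluN2B for GluN2A at synapses, read 3.44, 3.77, 3.96 and 3.92 FPKM in anti-miR-29a libraries and 4.09, 4.79, 5.34 and 5.75 FPKM in scrambled libraries. Every anti-miR-29a value lay below every scrambled one, with a log2 difference of -0.39 that was not called (limma, adjusted p = 0.313). Erbb4, a neuregulin receptor gene, differed by -0.39 with overlapping groups (limma, adjusted p = 0.432).

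The 11 AMPA, kainate and delta receptor subunits had a median of -0.13 with 8 below 0, against 43.4% of all tested rows, and none was called. Their transcripts have a median of 5720 nt, and 54.8% of all tested rows of 4000 to 6000 nt were below 0. Grik3 and Grik2, kainate receptor subunits, differed by -0.23 and -0.18, and Gria2, the AMPA receptor subunit that limits calcium entry, by -0.13 (limma, adjusted p = 0.444, 0.481 and 0.484). Whether the NMDA receptor subunits differed from these was not tested.

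The genes most like Grin2b over the 8 libraries, by Pearson correlation of log2 values among 12714 other genes averaging 1 FPKM or more, were Trim2 (0.99), Snap91 (0.98) and Aak1 (0.97). The closest to Grin2a were Gabbr2 (0.98), Kcnt2 (0.97) and Srebf2 (0.97), and those closest to Grin1 were 4933432I09Rik (0.96), Rpf2 (0.92) and Vamp1 (0.92). These are the highest of many correlations over 8 points that share library and group, and they are given as a description. Snap91, a clathrin adaptor of synaptic vesicles, averaged 61.5 ± 1.95 FPKM in anti-miR-29a libraries and 65.1 ± 2.51 FPKM in scrambled libraries (SD, n = 4 each), a far narrower span than that of Grin2b. Kcnt2, a sodium-activated potassium channel gene, read 3.10, 3.66, 4.02 and 3.94 FPKM in anti-miR-29a libraries and 4.31, 6.10, 5.01 and 5.74 FPKM in scrambled libraries, with no overlap. As for Grin2a, its highest values were those of scrambled replicates 2 and 4.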

How the data were processed

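RNA from 8 visual cortex samples was sequenced (paired reads of 100 bp, about 30 M per sample, per the labels' protocols). The authors deposited 1 table of FPKM. The tools named in the submitters' processing notes are CASAVA 1.8.2, Bowtie and Cuffnorm, with the mm10 build; no source used here gives their order, the annotation, the filters or the scaling. The kit does not mark strand. No counts were used, so depth was estimated only relatively, from the spacing of low values and within a narrow range.

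Rows with a mean of at least 0.5 FPKM were tested as log2(FPKM + 0.1) with limma 3.58.1 (R 4.3.3), with no covariate, a trended prior variance, two-sided p-values and Benjamini-Hochberg adjustment over all 13912 rows. The pseudocount shrinks the fold changes of low genes. The fit was tested on simulated data. The Grin2b to Grin2a ratio, 1 value per library, had an exact permutation test. The members, lists and tests were chosen with earlier results of these data known. Named from each list were the 3 genes of smallest p averaging 1 FPKM or more, and for Grin1, Grin2a and Grin2b the 3 most correlated genes; 2 of the genes so chosen are not reported here. Lengths and 3' UTRs of transcripts were read from GENCODE M21 (mm10 assembly), which matched 23982 of 24346 symbols, 672 through another symbol. The trend on length and GC was a smooth fit (mgcv 1.9.3) to each library's deviations from the row means. Other alternatives were pseudocounts, filters, scalings, sample weights, robust empirical Bayes, the replicate block and each library left out. The test of rows with a transcript of at least 200 nt was chosen after seeing the data.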

Additional observations from a re-analysis of the deposited data

Results flagged for a closer look

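An outlying sample was looked for in 80 groups of 4 values, where chance flags about 1 group in 20, and 6 were found. Scrambled replicate 2 had 2.70 FPKM of Grin3a, against 3.47 to 3.60 FPKM in the other scrambled libraries. The same library had 40.2 FPKM of Dlg1, against 34.4 to 35.0 FPKM in the others. Scrambled replicate 3 stood out in 3 cerebellar genes, with 6.67 FPKM of Gabra6 (others listed at 0), 41.2 FPKM of Pcp2 (others 0 to 0.843 FPKM) and 24.2 FPKM of Cbln1 (others 0.893 to 2.36 FPKM). Gabra6 was also 0.170 FPKM in anti-miR-29a replicate 3 and listed at 0 in the other 3 anti-miR-29a libraries. Pcp2 and Cbln1 were among the cerebellar genes chosen after values were seen, so the chance rate does not apply to them.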

How the results depend on the processing

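Grin2a and Grin2b stayed lower in anti-miR-29a libraries under all alternatives run (19 and 18), with log2 differences of -0.48 to -0.26 and -0.77 to -0.50, and neither was called in any (limma, adjusted p of 0.238 to 0.632 and 0.275 to 0.662). Grin2d stayed below 0 in all 18. The sign of Grin1 turned without anti-miR-29a replicate 2 or 4 or scrambled replicate 2 (leave-one-out range -0.036 to 0.043), that of Grin2c without scrambled replicate 2 or 4 (-0.015 to 0.23) and that of Grin3a without anti-miR-29a replicate 3 (-0.15 to 0.052). The untested Grin3b difference, 0.22, ranged from -0.061 to 0.57. The Grin2b to Grin2a ratio kept its sign in all 12 and did not pass the threshold in any (-0.40 to -0.16, exact permutation p of 0.0571 to 0.375). The 2 calls over the whole table became 1 with no filter, 1 at a mean of at least 5 FPKM, 10 with robust empirical Bayes and 0 with only rows of at least 200 nt (limma, 1507 at an unadjusted p under 0.05), and 1 to 4 with a library left out (4 without anti-miR-29a replicate 3, 1 without anti-miR-29a replicate 1 or 4). With the replicate block 0 rows were called (limma, 1476 at an unadjusted p under 0.05). The ratio had p = 0.375 by exact permutation of the pairs, where the smallest possible is 0.125, so that test could not pass. Deviations from the group mean of each row correlated at -0.11 to 0.014 between same-numbered libraries of the groups. Between libraries of different numbers they correlated at -0.23 to 0.19, so the numbers were not taken to pair samples. With no counts, the depth behind each value is unknown; Grin3b, near its smallest values above 0, was not tested.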
